A study of Mus musculus with 2 samples.

Results

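The cyclins of the D and E families, the cyclin-dependent kinases Cdk2, Cdk4 and Cdk6, and the inhibitor Cdkn1b (p27) drive or hold back the passage of a resting cell into DNA synthesis. These 9 genes, Ccnd1, Ccnd2, Ccnd3, Ccne1, Ccne2, Cdk2, Cdk4, Cdk6 and Cdkn1b, were picked by symbol from the 32285 genes of the single-cell RNA sequencing files, and each had 1 row there. They were picked with their levels per cell type in these libraries already known, so those levels are a description and nothing is tested on them. The libraries came from post-ischemic kidneys of 9-week-old male C57BL/6 mice, taken 24 h after bilateral renal ischemia-reperfusion injury. In the JPI-289 group (n = 1) the mouse was given JPI-289, an inhibitor of poly(ADP-ribose) polymerase, into the peritoneal cavity at 100 mg/kg just before reperfusion. The control mouse (n = 1) was given saline at that moment, and both kidneys had been ischemic. With 1 library per group there is no replicate check and no test between the groups, and a difference between the mice cannot be told apart from the treatment.

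Growth signals raise the D cyclins in resting cells. A D cyclin bound to Cdk4 or Cdk6 begins the phosphorylation of the retinoblastoma protein, E2F factors are freed, and cyclin E with Cdk2 completes the step, while Cdkn1b binds and restrains the Cdk2 complexes. After ischemia, surviving proximal tubule cells are known to re-enter the cell cycle and replace those that were lost.

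On the GRCm38 build (GENCODE vM21), Ccnd1 lies on chromosome 7 from 144929931 to 144939925, Ccnd2 on chromosome 6 from 127125162 to 127152193, Ccnd3 on chromosome 17 from 47505051 to 47599691, Cdk4 on chromosome 10 from 127063534 to 127067920 and Cdkn1b on chromosome 6 from 134920401 to 134925513. All members but Ccne1 and Cdkn1b overlap a gene on the opposite strand that the files also list, among them LTO1 for Ccnd1, Bysl for Ccnd3 and Tspan31 for Cdk4, and the strand setting of the counting was not given in the sources used here. RefSeq promoters were matched for 6 of the 9 members, all but Ccnd1, Ccnd2 and Ccne2. The windows of Cdk4 and Ccnd3 are shown because these genes differed in opposite directions in the proximal tubule, Cdk4 by less than 2-fold. Each line gives the 250 bases before a transcription start on the gene's plus strand (GRCm38.p6), with matches to CACGTG (the E-box) and GGGCGG (the GC box), on either strand, in capitals. The Cdk4 window is chr10:127063285-127063534, and the windows of the outer and inner Ccnd3 starts are chr17:47504801-47505050 and chr17:47593217-47593466.
Cdk4: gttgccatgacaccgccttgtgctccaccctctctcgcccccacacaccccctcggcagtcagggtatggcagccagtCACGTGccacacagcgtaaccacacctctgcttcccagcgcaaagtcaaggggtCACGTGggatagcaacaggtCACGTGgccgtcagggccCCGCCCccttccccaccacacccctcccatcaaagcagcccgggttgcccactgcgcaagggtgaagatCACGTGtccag
Ccnd3 outer start: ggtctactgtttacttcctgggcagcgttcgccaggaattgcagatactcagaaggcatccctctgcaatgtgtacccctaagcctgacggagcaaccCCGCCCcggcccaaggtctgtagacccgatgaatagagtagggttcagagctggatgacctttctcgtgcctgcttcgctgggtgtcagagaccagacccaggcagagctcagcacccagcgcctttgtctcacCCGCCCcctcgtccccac
Ccnd3 inner start: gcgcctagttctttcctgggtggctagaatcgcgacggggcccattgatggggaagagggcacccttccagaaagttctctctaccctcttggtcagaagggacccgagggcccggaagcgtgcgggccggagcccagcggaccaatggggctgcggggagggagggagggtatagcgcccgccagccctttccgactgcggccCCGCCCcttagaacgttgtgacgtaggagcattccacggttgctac
The Cdk4 window holds 4 E-boxes and 1 GC box, the Ccnd3 windows no E-box and 2 and 1 GC boxes. Of the windows not shown, that of Cdk6 holds 1 E-box. Those of Ccne1, Cdk2 and Cdkn1b hold 0. The letters GCGGGAA were also sought, with 2 matches in the Cdk2 window and 0 in the windows shown. Of 32841 RefSeq windows of this length without unread bases, 6.02% hold an E-box, 0.0609% hold at least 3, and 32.7% hold a GC box. The motifs were chosen after the windows had been seen, and a match says only that these letters are there. Their part in the levels was not tested.

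The control library had 38328760 unique molecular identifiers (UMIs, each counting 1 captured RNA molecule whatever its length) and the JPI-289 library 35548396. After cell calling, 3750 control and 5045 JPI-289 cells remained, with medians of 2056.5 and 1866 UMIs. Of their barcodes 23 were present in both libraries, where 25.7 would be expected if the barcodes were independent. Clusters were named from marker genes as proximal tubule (PT-like, 1776 control and 1647 JPI-289 cells), loop of Henle and distal tubule (LOH/DCT-like, 498 and 658), collecting duct (CD-like, 126 and 444), endothelial (EC-like, 498 and 569), stroma-like (158 and 101), neutrophil-like (196 and 654) and macrophage-like (132 and 172). All 19 PT markers had UMIs in PT-like cells of both libraries. The clusters were named from that list, so this is no separate check of the labelled tissue. Of the 19, 10 were at least 2-fold lower in JPI-289 and 2 at least 2-fold higher. Summed, they stood at 17731 in control and 13862 in JPI-289 for every 1000000 UMIs of the class. In PT-like cells, however, the libraries hardly shared clusters. Only 1 PT-like cluster held at least 20 cells of each, with 23 control and 976 JPI-289 cells, and the summed markers of injured PT stood at 944 in control and 7985 in JPI-289, as UMIs for every 1000000 UMIs of the class. Its part in the results below was not tested.

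A level is given as CPM, the UMIs of a gene for every 1000000 UMIs of the class in 1 library, with an exact Poisson 95% interval. A difference is the JPI-289 level divided by the control level on the log2 scale (log2 ratio), after 0.5 was added to each UMI sum, with an exact binomial 95% interval. Both intervals cover counting error only. A gene was compared in a class where it had at least 20 UMIs over both libraries, and it is called higher or lower where the ratio was at least 2-fold.

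**Figure D1:**
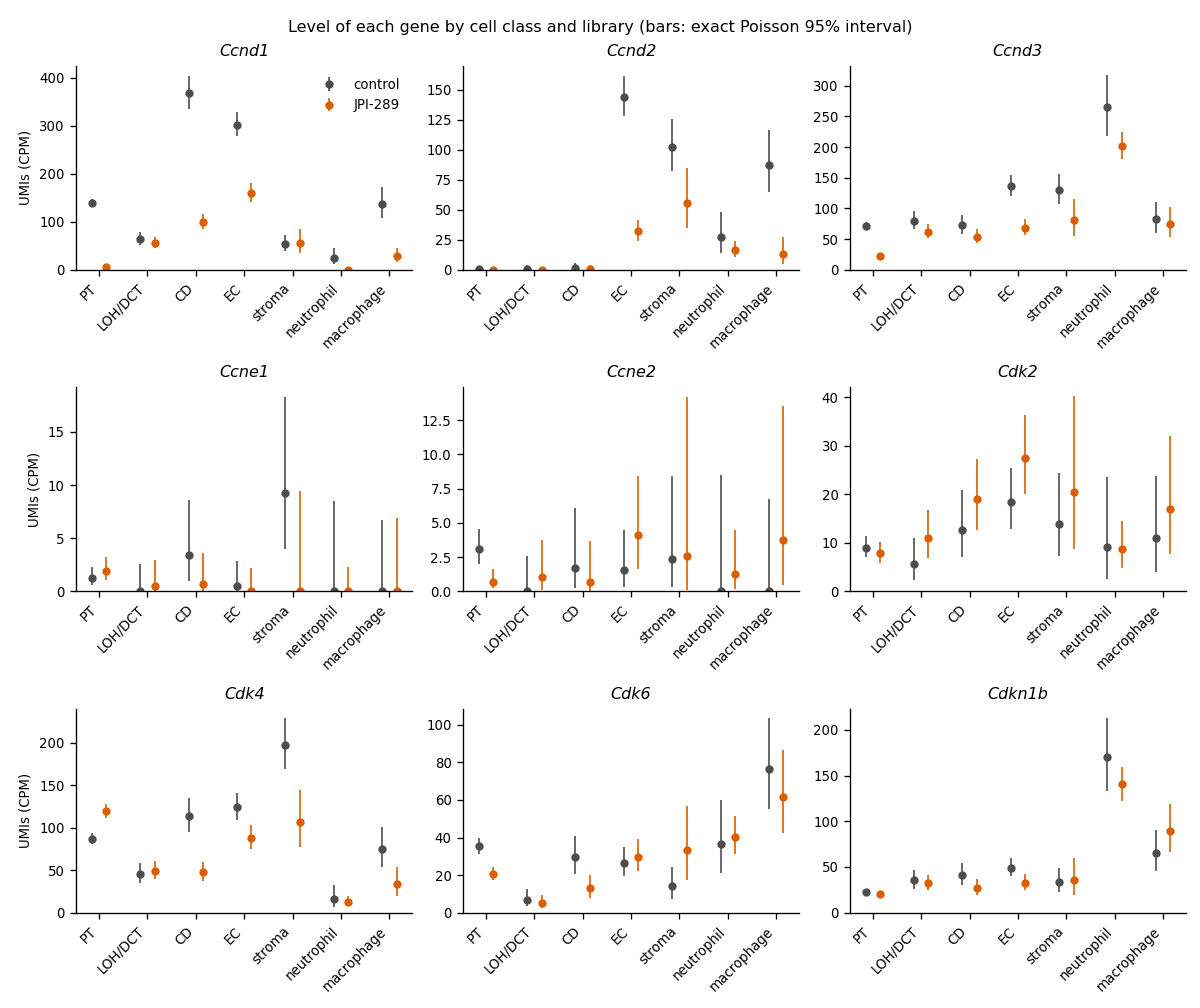
Levels of the 9 genes, in CPM on a linear axis from 0, in 7 cell classes of the control (grey) and JPI-289 (orange) library. Bars are exact Poisson 95% intervals; Ccnd1 falls on 140 in control and 5.87 in JPI-289 PT-like cells, while Cdk4 falls on 87.2 and 120.

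Among the D cyclins, Ccnd1 (cyclin D1, the D cyclin that growth factors most often raise in epithelium) had 1135 UMIs in control PT-like cells and 43 in JPI-289 PT-like cells. These are levels of 140 (132 to 148) and 5.87 (4.25 to 7.91) CPM, a 23.8-fold lower level in JPI-289 with a log2 ratio of -4.56 (-5.05 to -4.14). Ccnd3 (cyclin D3) had 583 and 160 UMIs, or 71.9 (66.2 to 78.0) and 21.8 (18.6 to 25.5) CPM, a log2 ratio of -1.72 (-1.98 to -1.46). For both genes the intervals of the libraries lay far apart. Ccnd2 (cyclin D2) was near the counting floor in this class, with 6 and 2 UMIs. Ccne2 (cyclin E2) had 25 and 5 UMIs, a log2 ratio of -2.07 (-3.92 to -0.76), and was the least well counted of the 3 members called lower.

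In PT-like cells 8 of the 9 members had enough UMIs, and 3 of these were lower and 0 higher, where 23.6% of all 11305 genes compared were lower and 9.12% higher. The median log2 ratio was -0.49 over these 8 members and -0.19 over all genes. That is about 1 member more than the share of all genes would give, and Ccnd1 had the largest difference of the 8.

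The lower Ccnd1 level also appeared in the share of cells with a UMI. At full depth, 538 of 1776 control PT-like cells (30.3%, exact binomial 95% interval 28.2 to 32.5) and 31 of 1647 JPI-289 PT-like cells (1.88%, 1.28 to 2.66) had a Ccnd1 UMI. With 1000 randomly drawn UMIs kept per cell, for which 435 control and 513 JPI-289 cells were too shallow, the shares were 11.9% (10.2 to 13.7) and 0.441% (0.143 to 1.03). Neutrophils, which should hold little Ccnd1, gave 2.82% (0.923 to 6.47) of 177 control cells and 0 of 582 JPI-289 cells at that depth, which allows a share of up to 0.515% (3 counts of 582). At that depth the control PT-like share lay above that of neutrophils, and the JPI-289 PT-like share could not be told from it. At full depth 1 of 654 JPI-289 neutrophil-like cells had a Ccnd1 UMI (0.153%, 0.00387 to 0.849). That lay below the JPI-289 PT-like share of 1.88% (1.28 to 2.66). Median depths were 2298.5 and 1840 UMIs in PT-like cells and 1973 and 2035.5 in neutrophil-like cells. The free RNA of the suspension, read from barcodes of less than 100 UMIs, was estimated as 5.61% and 5.90% of the UMIs of PT-like cells, and would by itself give a Ccnd1 level of 6.49 CPM in control and 2.06 in JPI-289.

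Within the proximal tubule, Ccnd1 levels of the control and JPI-289 clusters of at least 20 cells did not overlap. All cells of a library come from 1 mouse, so its clusters are not replicates. They were formed without correction between the libraries, so this separation adds no support to the class difference. The share of all genes that separate in this way was not counted. The control clusters had Ccnd1 levels of 67.7 (50.4 to 89.0) to 281 (121 to 554) CPM, and the JPI-289 clusters 4.25 (2.20 to 7.42) to 8.06 (4.77 to 12.7). The highest control value rests on 8 UMIs, in the 23 control cells of the shared cluster, which Srxn1, Plin2 and Prdx1 led. In that cluster JPI-289 cells had 18 UMIs at 8.06 CPM. Of the control clusters, 3 also held 5, 1 and 8 JPI-289 cells, which had 1, 1 and 0 Ccnd1 UMIs in all. Each single UMI makes a level of 284 (7.20 to 1584) and 399.8 (10.1 to 2228) CPM. Both intervals overlap that of the highest JPI-289 cluster, so these few cells do not place Ccnd1 above it. Ccnd3 did not separate so cleanly, since the control cluster led by the nuclear RNAs Gm26917 and Neat1 had 22.6 (13.1 to 36.1) and the JPI-289 clusters 15.9 (11.6 to 21.3) to 26.4 (20.1 to 34.1). The other control clusters with more than 1 Ccnd3 UMI had 49.1 (38.9 to 61.1) to 133 (116 to 151). In the shared cluster alone, a set chosen after seeing the data, the log2 ratio of Ccnd3 was -0.98, short of 2-fold, on 1 control UMI.

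**Figure D2:**
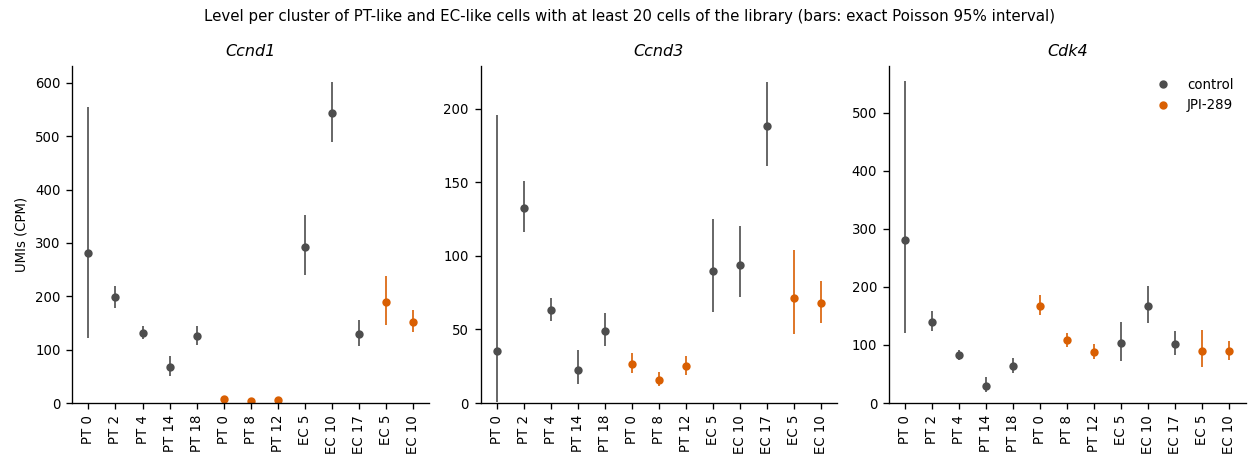
Levels of Ccnd1, Ccnd3 and Cdk4 in CPM (linear axes from 0) in each cluster of PT-like and EC-like cells that had at least 20 cells of the library, control in grey and JPI-289 in orange, with exact Poisson 95% intervals. All JPI-289 PT-like clusters lie at or under 8.06 for Ccnd1, all control ones at or above 67.7. The libraries hardly shared PT-like clusters, and the share of all genes that separate in this way was not counted.

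Among the classes with enough UMIs, Ccnd1 was lower in JPI-289 in CD-like and macrophage-like cells too, at smaller log2 ratios than in PT-like cells. Neutrophil-like cells were under the minimum, with 11 and 1 UMIs and a log2 ratio of -4.83 (-10.8 to -2.57), and free RNA alone would give them 22.2 CPM in control and 4.81 in JPI-289. CD-like cells had 437 and 152 UMIs, levels of 368 (334 to 404) and 99.3 (84.2 to 116) CPM and a log2 ratio of -1.89 (-2.17 to -1.62). The difference lay in the cluster led by Aqp2, at 441 (400.2 to 484) and 110 (92.9 to 129), while the one led by Atp6v1g3 had 4 UMIs in each library, at 19.6 and 21.8. Macrophage-like cells had 75 and 15 UMIs, levels of 137 (108 to 172) and 28.1 (15.7 to 46.3) and a log2 ratio of -2.25 (-3.19 to -1.47), which was -0.88 with every cell given equal weight. EC-like cells had 594 and 274 UMIs, levels of 302 (278 to 327) and 160 (141 to 180) and a log2 ratio of -0.92 (-1.13 to -0.71), short of 2-fold, and -0.33 with cells thinned to 1000 UMIs. Both EC-like clusters with at least 20 cells of each library were lower in JPI-289, at 292 and 188 in the one led by the heat shock gene Hspa1b and at 543 and 153 in the one led by Igfbp3. A cluster led by Plvap, almost wholly of control cells (185 and 3), was at 130 in control, and without it the log2 ratio of the class was -1.49, an alternative chosen after seeing the data. In LOH/DCT-like cells, with 92 and 108 UMIs, and stroma-like cells, with 47 and 22, the intervals of the log2 ratio included 0, at -0.19 (-0.60 to 0.23) and 0.06 (-0.76 to 0.80). Over 13 alternatives the LOH/DCT-like value ran from -0.94 (first calling step alone) to 0.04 (free RNA subtracted). The stroma-like value was not stable, from -1.62 with every cell given equal weight to 1.92 with cells thinned to 1000 UMIs.

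The order of the Ccnd1 levels therefore differed between the libraries. In control it ran from CD-like to EC-like, PT-like, macrophage-like, LOH/DCT-like, stroma-like and neutrophil-like cells, and among neighbours the intervals of PT-like and macrophage-like, of LOH/DCT-like and stroma-like, and of stroma-like and neutrophil-like cells overlapped. In JPI-289 EC-like cells came before CD-like, LOH/DCT-like, stroma-like, macrophage-like, PT-like and neutrophil-like cells, and among neighbours in this order the intervals of LOH/DCT-like and stroma-like and of stroma-like and macrophage-like cells overlapped. PT-like cells moved from the third place to the sixth.

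Among the 7 classes Ccnd2 was a gene of the vessel, stroma and myeloid cells. EC-like cells had 283 control and 55 JPI-289 UMIs, levels of 144 (128 to 162) and 32.0 (24.1 to 41.7) CPM and a log2 ratio of -2.16 (-2.61 to -1.75). Macrophage-like cells had 48 and 7 UMIs, levels of 87.6 (64.6 to 116) and 13.1 (5.27 to 27.0) and a log2 ratio of -2.65 (-4.13 to -1.59). Stroma-like cells had 88 and 22 UMIs, a log2 ratio of -0.84 (-1.61 to -0.18), and neutrophil-like cells 12 and 27 UMIs at -0.76 (-1.75 to 0.39). The 3 tubule classes had at most 6 Ccnd2 UMIs in any library. By level, the control order was EC-like, stroma-like, macrophage-like and neutrophil-like cells. Among neighbours there, only the intervals of stroma-like and macrophage-like cells overlapped. In JPI-289 stroma-like cells came first, at 56.0 (35.1 to 84.8) CPM, before EC-like, neutrophil-like and macrophage-like cells. Each of these 4 classes overlapped with the next in that order.

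Among these 7 classes Ccnd3 was highest in neutrophil-like cells of both libraries, with 115 control and 326 JPI-289 UMIs, levels of 264 (218 to 317) and 202 (180 to 225) CPM. The log2 ratio there was -0.39 (-0.70 to -0.07). EC-like cells had 269 and 118 UMIs, levels of 137 (121 to 154) and 68.7 (56.9 to 82.3) and a log2 ratio of -0.99 (-1.32 to -0.68), which was -0.43 without the Plvap cluster, itself at 188 (161 to 218) in control. In the Hspa1b and Igfbp3 clusters Ccnd3 stood at 89.5 and 71.6 and at 93.98 and 67.7, with overlapping intervals. Stroma-like cells had 112 and 32 UMIs, levels of 130 (107 to 156) and 81.5 (55.8 to 115) and a log2 ratio of -0.66 (-1.29 to -0.10). In the LOH/DCT-like, CD-like and macrophage-like classes the log2 ratios of Ccnd3 were -0.36, -0.42 and -0.13, with intervals that included 0. Ccnd3 thus lay lowest in JPI-289 PT-like cells, whose interval overlapped that of none of the other 6 classes of that library.

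Summed over the 3 genes, D cyclin UMIs stood at 213 CPM in control and 28.0 in JPI-289 PT-like cells, 442 and 154 in CD-like cells, and 583 and 260 in EC-like cells. Ccnd1 made up 65.8% of the D cyclin UMIs of control PT-like cells and 21.0% of those of JPI-289 PT-like cells, and Ccnd3 33.8% and 78.0%. In macrophage-like cells the share of Ccnd3 likewise stood at 26.8% in control and 64.5% in JPI-289. In EC-like cells Ccnd1 made up 51.8% and 61.3%.

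**Figure D3:**
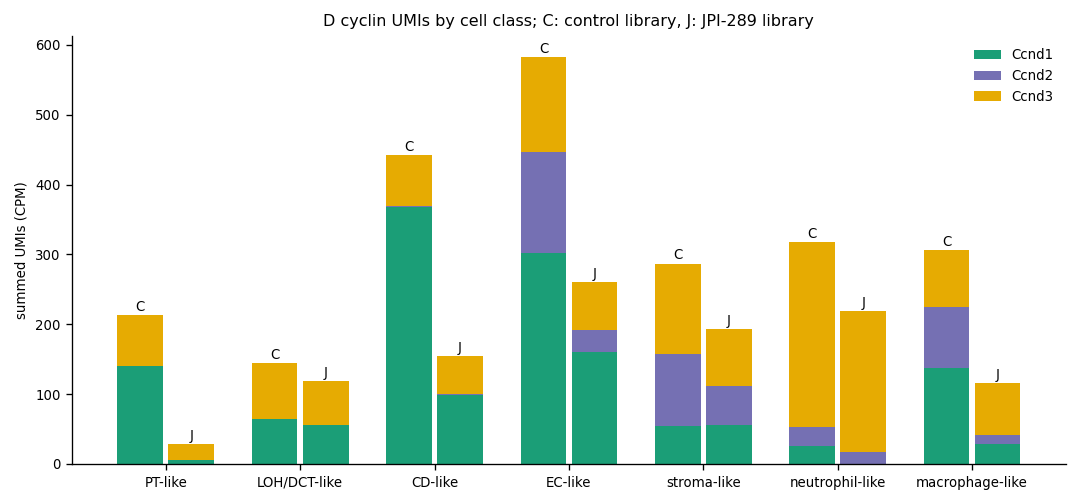
Summed D cyclin CPM by cell class, control (C) and JPI-289 (J), stacked by gene on an axis from 0. The PT-like bars stand at 213 and 28.0, and Ccnd3 takes most of the JPI-289 bar.

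The E cyclins were scarce. Ccne1 (cyclin E1) had 10 control and 14 JPI-289 UMIs in PT-like cells, a log2 ratio of 0.61 (-0.64 to 1.96), and at most 8 UMIs in either library of every other class named above. Ccne2 had 3 and 7 UMIs in EC-like cells and at most 2 in the other classes outside the PT-like cells. At this depth no difference in Ccne1 was detectable.

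The kinase Cdk4, the main partner of the D cyclins in many epithelial cells, had 707 control and 877 JPI-289 UMIs in PT-like cells. Its levels of 87.2 (80.9 to 93.9) and 120 (112 to 128) CPM gave a log2 ratio of 0.46 (0.31 to 0.60), higher in JPI-289 though short of 2-fold. In the shared PT-like cluster the values ran the other way, with 8 control UMIs at 281 (121 to 554) and 374 JPI-289 UMIs at 167 (151 to 185). The Cdk4 levels of the PT-like clusters of at least 20 cells overlapped between the libraries. The other control clusters stood at 29.2 (18.3 to 44.2) to 140 (123 to 158), the latter in the cluster of 779 cells led by Pck1. The other JPI-289 clusters stood at 88.2 (76.4 to 101) and 108 (95.9 to 120). In CD-like, macrophage-like, stroma-like and EC-like cells the JPI-289 level of Cdk4 was below the control level. CD-like cells had 135 and 73 UMIs, a log2 ratio of -1.25 (-1.68 to -0.83) that was -0.51 with every cell given equal weight, and macrophage-like cells 41 and 18, at -1.13 (-2.04 to -0.32) and at -0.45 with equal weight. Stroma-like cells had 170 and 42 UMIs, levels of 197 (169 to 229) and 107 (77.1 to 145) and a log2 ratio of -0.87 (-1.41 to -0.39), and EC-like cells 244 and 152 UMIs, at -0.49 (-0.79 to -0.19). LOH/DCT-like cells were at 0.10 (-0.36 to 0.58), and neutrophil-like cells, with 7 and 20 UMIs, at -0.44 (-1.68 to 1.11), intervals that included 0. Of the 7 classes Cdk4 in control was highest in stroma-like cells, and in JPI-289 in PT-like cells, whose interval overlapped that of stroma-like cells.

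Cdk6, which also pairs with the D cyclins and is best known from blood cells, was highest of the 7 classes in macrophage-like cells, at 76.6 (55.2 to 104) CPM in control and 61.8 (42.6 to 86.8) in JPI-289. The intervals of neutrophil-like cells overlapped with these in both libraries, at 36.8 (21.0 to 59.7) and 40.2 (31.0 to 51.2), and that of stroma-like cells in JPI-289, at 33.1 (17.6 to 56.6). PT-like cells had 287 and 152 UMIs, levels of 35.4 (31.4 to 39.7) and 20.8 (17.6 to 24.3) and a log2 ratio of -0.77 (-1.06 to -0.48). In CD-like cells Cdk6 had 35 and 20 UMIs and a log2 ratio of -1.16 (-2.04 to -0.34), which passed 2-fold in 8 of 13 alternatives. The 12 and 13 UMIs of stroma-like cells gave 1.24 (-0.00 to 2.51), an interval that reaches 0, and passed 2-fold in 9 of 13 alternatives.

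Cdk2, the partner of cyclin E, had 73 and 57 UMIs in PT-like cells, levels of 9.00 (7.06 to 11.3) and 7.78 (5.89 to 10.1). Its log2 ratio was -0.21 (-0.74 to 0.31) there, 0.58 (-0.08 to 1.25) in EC-like cells and 0.92 (-0.26 to 2.36) in LOH/DCT-like cells, and the interval included 0 in each class where it was compared.

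In the tubule the intervals of the Cdkn1b log2 ratio included 0. PT-like cells had 179 and 147 UMIs, levels of 22.1 (19.0 to 25.6) and 20.1 (17.0 to 23.6) and a log2 ratio of -0.14 (-0.46 to 0.19). LOH/DCT-like cells were at -0.14 (-0.70 to 0.43), and CD-like cells, with 49 and 42 UMIs, at -0.59 (-1.22 to 0.04). Of the 7 classes neutrophil-like cells had the highest levels, 170 (134 to 214) in control and 140 (123 to 160) in JPI-289. EC-like cells had 97 and 56 UMIs and a log2 ratio of -0.59 (-1.10 to -0.11). With free RNA subtracted it was -1.11. Without the Plvap cluster, an alternative chosen after seeing the data, it was -0.03. That cluster stood at 67.7 (51.9 to 86.8) CPM in control. In the Igfbp3 cluster Cdkn1b was at 28.3 (17.1 to 44.3) and 36.1 (26.6 to 47.9), with overlapping intervals.

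**Figure D4:**
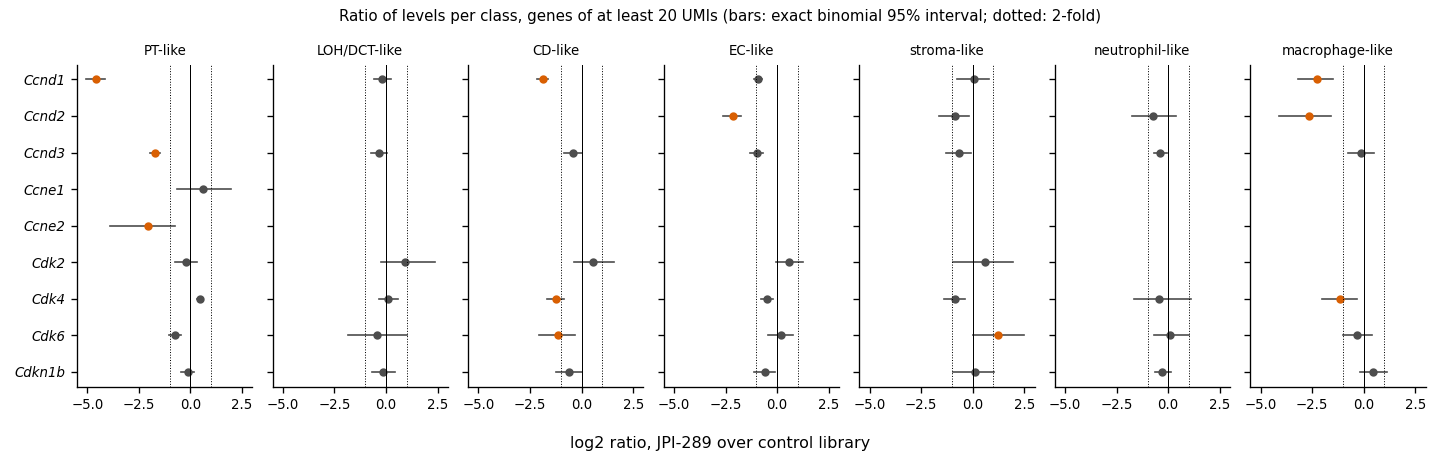
Log2 ratios of JPI-289 over control for the members with at least 20 UMIs in each class, with exact binomial 95% intervals; orange points passed 2-fold and dotted lines mark it. Ccnd1 stands at -4.56 in PT-like cells, and in each class shown 0 to 3 members were called lower.

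Outside the proximal tubule the members called lower were Ccnd1, Cdk4 and Cdk6 of 6 compared in CD-like cells (14.2% of all genes lower, 7.7% higher), Ccnd2 of 7 in EC-like cells (18.6% and 5.12%), and Ccnd1, Ccnd2 and Cdk4 of 6 in macrophage-like cells (17.2% and 10.9%). Cdk6 was the 1 member called higher, of 7 compared in stroma-like cells (13.9% of all genes lower, 11.9% higher). None of 6 in LOH/DCT-like cells (11.8% and 6.71%) and of 5 in neutrophil-like cells (10.3% and 11.6%) passed 2-fold. Red blood cell-like cells had 0 members with enough UMIs (6.64% of 512 genes lower and 17.4% higher). Other RNA moved with some of these classes. Neutrophil markers stood at 9.27 and 504 CPM in CD-like cells, where 5 of the 9 were compared and 5 higher, and control CD-like cells were deeper, with a median of 6613 against 1557.5 UMIs. In CD-like cells the CD markers themselves stood at 12504 and 7730, with 5 of 12 lower. LOH/DCT markers stood there at 5818 and 2434, with 5 of 6 compared lower. Free RNA was estimated as 4.34% of control and 18.8% of JPI-289 UMIs in CD-like cells, and 20.5% and 31.2% in EC-like cells. In JPI-289 CD-like cells it would by itself give 6.55 of 99.3 CPM of Ccnd1, 11.5 of 47.7 of Cdk4 and 6.00 of 13.1 of Cdk6. Red blood cell markers stood at 108 and 1353 in EC-like cells, with 4 of 4 compared higher, and at 80.3 and 3580 in macrophage-like cells, with 4 of 4 compared higher. In macrophage-like cells the macrophage markers themselves stood at 15557 and 7261, with 8 of 12 lower, and neutrophil markers at 779 and 2271, with 4 of 5 compared higher. In stroma-like cells neutrophil markers stood at 11.6 and 637, with 3 of 3 compared higher, and stroma markers at 18570 and 9439, with 4 of 12 lower. Their part in the member differences was not tested.

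In the whole libraries, with no cell calling or naming, the D cyclin levels of JPI-289 were below control as well. These sums include the UMIs of the cells above, so they are no separate check of the class differences. They also mix level with cell make-up, which differed. PT-like cells numbered 1776 in control and 1647 in JPI-289, and neutrophil-like cells 196 and 654. Over all barcodes Ccnd1 stood at 136 CPM in control and 29.1 in JPI-289, a log2 ratio of -2.23 (-2.33 to -2.13). Ccnd2 was at -1.92 (-2.19 to -1.67) and Ccnd3 at -0.77 (-0.86 to -0.68). Cdk4 was at -0.11 (-0.18 to -0.03), and Cdkn1b at 0.34 (0.23 to 0.44). None of the classes compared had a Cdkn1b interval wholly above 0. Neutrophil-like cells, which had the highest Cdkn1b levels of these classes, made up a larger share of the JPI-289 cells. The part of cell make-up in these pooled values was not tested. Among barcodes under 100 UMIs, which hold mostly free RNA, Ccnd1 had 51 and 12 UMIs, 116 and 34.9 CPM.

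Other genes of the pathway were taken from 6 lists. Their counts are to be read beside the shares of all genes compared. These were 23.6% lower and 9.12% higher in PT-like cells, and 18.6% and 5.12% in EC-like cells. Of the CDK inhibitors other than Cdkn1b, Cdkn1a (p21, a p53 target that binds cyclin-CDK complexes) had 552 control and 2703 JPI-289 UMIs in PT-like cells, levels of 68.1 and 369 CPM and a log2 ratio of 2.44 (2.31 to 2.57). Cdkn1c, Cdkn2c and Cdkn2d were lower, at -1.64, -1.17 and -1.86, so that 1 of 4 compared was higher and 3 lower. In EC-like cells Cdkn1a stood at 641 and 2135 CPM, 1.74 (1.64 to 1.83), and Cdkn1c at 0.31 and Cdkn2d at -0.32 were the next highest and the lowest of 4. Cdkn1a was also higher in LOH/DCT-like and CD-like cells, at 1.95 and 1.46. In macrophage-like cells it stood at 0.98 (0.80 to 1.17), short of 2-fold. In direction Cdkn1a was thus the opposite of Ccnd1 in PT-like and CD-like cells of the same libraries. This did not hold in LOH/DCT-like cells, where the Ccnd1 log2 ratio was -0.19 (-0.60 to 0.23). A link between the 2 genes was not tested.

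Among the pocket proteins (the retinoblastoma protein and its relatives) and the E2F factors, 0 of 11 compared were higher and 4 lower in PT-like cells. Of all genes there, 9.12% were higher and 23.6% lower. Rbl1, the retinoblastoma relative p107, was lowest at -1.92 (-3.30 to -0.85), with E2f2 at -1.75, E2f1 at -1.44 and Rbl2 at -1.07. E2f4, with Tfdp2 the gene with most UMIs of the list, was at 0.70 and Tfdp2 at 0.25. In EC-like cells 1 of 9 was lower, Rbl1 at -1.18 (-2.74 to 0.07), while E2f6 was highest at 0.45, and E2f4 and Rb1 were at -0.02 and 0.15.

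Of 19 E2F target genes of DNA replication and division, 14 had enough UMIs in PT-like cells, and 0 were higher and 7 lower, with a median log2 ratio of -1.002 beside -0.19 over all genes. Mcm5, a subunit of the replicative helicase, was lowest with 73 and 11 UMIs, at -2.53 (-3.65 to -1.66). Mcm3 was at -1.93, Ccna2 (cyclin A2) at -1.73, Rrm2 at -1.67, Tyms (thymidylate synthase) at -1.51, Mcm2 at -1.18 and Rrm1 at -1.02. The list did not move as a block, since Pcna, among the genes with most UMIs, stood at 0.55, and Cdt1 was highest at 0.74 (0.24 to 1.25). In EC-like cells 0 of 11 were higher and 3 lower, with a median of -0.25. Tyms at -1.45 and Cdt1 at -1.11 were among these, while Pcna and Mcm6 were at 0.01 and 0.36.

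Among the transcription factors upstream of the D cyclins, 1 of 13 compared was higher and 2 lower in PT-like cells. Fosl1, an AP-1 subunit, had 16 control and 371 JPI-289 UMIs and a log2 ratio of 4.64 (3.96 to 5.50). Stat5a was at -2.15 (-3.28 to -1.25) and Tcf7l2, a partner of beta-catenin, at -1.08. The most abundant, Jund and Jun, stood at 0.88 and -0.99. In EC-like cells Foxo3 at 1.51 (1.00 to 2.07) and Lef1 at 1.24 (-0.09 to 2.83) were higher of 14, Myc was lowest at -0.88, and Jun and Fos were at 0.06 and -0.16.

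Of the genes for CDK activation and for turnover of cyclins and Cdkn1b, 3 of 13 compared were higher and 1 lower in PT-like cells. Usp2, a deubiquitinase reported to stabilise cyclin D1, had 888 control and 30 JPI-289 UMIs, levels of 110 and 4.10 CPM and a log2 ratio of -4.72 (-5.32 to -4.22). Cks1b was at 1.31, and the F-box genes Fbxo4 and Fbxw7 at 1.14 and 1.05. Skp1a and Rbx1, shared subunits of the ubiquitin ligases and the most abundant of the list, were at -0.23 and 0.47. In EC-like cells Usp2 at -1.18 was the 1 lower of 12, Cdc25a was highest at 0.66, and Rbx1 and Skp1a were at -0.68 and 0.17. The CDK-activating kinase had 0 of 3 genes past 2-fold in PT-like cells, with Ccnh at -0.34, Cdk7 at -0.29 and Mnat1 at 0.37. In EC-like cells Ccnh was lower at -1.43 (-2.24 to -0.73), Cdk7 was at -0.46 and Mnat1 at 0.37.

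**Figure D5:**
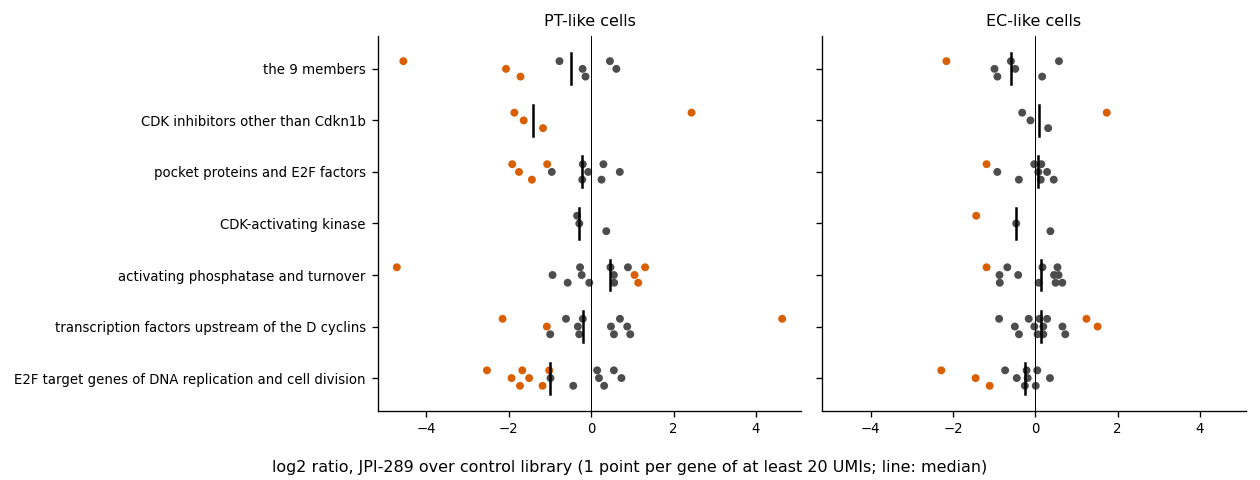
Log2 ratios of JPI-289 over control in PT-like and EC-like cells, 1 point per gene with at least 20 UMIs, for the 9 members and the 6 lists; orange points passed 2-fold and black lines mark medians. The E2F target genes have their median at -1.002 in PT-like and -0.25 in EC-like cells, and Usp2 and Fosl1 are the outermost points at -4.72 and 4.64.

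The genes most like each D cyclin were sought by Pearson's r of log2 levels over 18 sums of cells, 1 per class and library with at least 50 cells, among 10214 genes. The sums of a library share that library's preparation, and no p is given. Kifc3, Stard8 and Scoc were nearest to Ccnd1 (r of 0.848, 0.847 and 0.830), Adamts10, Emp3 and Tgfb1 to Ccnd2 (0.937, 0.917 and 0.905), and 0610030E20Rik, Kmt2e and Atg9a to Ccnd3 (0.954, 0.946 and 0.934). No gene was near to more than 1 D cyclin by this rule.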

How the data were processed

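Per the labels and the study's methods, the libraries were made with the 10x Chromium 5' kit v2, and the authors aligned the reads to mm10 with Cell Ranger 5.0.1 (the matrix headers name another version). The deposited counts are raw UMI counts per gene for all barcodes. Cells were called by total UMIs and then, from 500 UMIs, by simulated difference from empty droplets (false discovery rate 0.01), and 545 control and 395 JPI-289 cells over 50% mitochondrial UMIs were left out. Cells were clustered (scanpy 1.11.5, leidenalg 0.10.2, resolution 1, 2000 variable genes without the members, 30 components, no correction between libraries) and named from marker lists. Clusters stayed unnamed where few markers were detected, or where the leading genes held no marker or more markers of another class. Scrublet marked 3 of 8795 cells, too few to have worked, so doublets remain. The members, markers and pathway lists were chosen with earlier results of these data known. The genes named outside the members are, per list, the 2 with most UMIs, the outermost in each direction and any past 2-fold in PT-like or EC-like cells. The turnover list held Skp1 under both its symbols, of which the files list Skp1a, and 1 E2F target gene that the rule names is counted but not reported here. The ratio, interval and calling steps were tested on simulated data, and thinning on the control PT-like cells. Small PT-like cells have a profile close to that of empty droplets. The calling test therefore asked for a lower share of them to be called than of small neutrophil-like cells.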

Additional observations from a re-analysis of the deposited data

Results flagged for a closer look

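Cdk4 differed in direction between cell classes. Its log2 ratio, JPI-289 to control, was 0.46 (0.31 to 0.60) in PT-like cells, and -1.25 (-1.68 to -0.83) in CD-like, -0.49 (-0.79 to -0.19) in EC-like, -0.87 (-1.41 to -0.39) in stroma-like and -1.13 (-2.04 to -0.32) in macrophage-like cells. No interval of these 5 classes included 0, but they cover counting error only, and with 1 library per group the difference between the classes was not tested. Within PT-like cells the Cdk4 levels of the clusters overlapped between the libraries. No other member had an interval wholly above 0 in the 7 classes compared.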

How the results depend on the processing

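The log2 ratio of Ccnd1 in PT-like cells kept its sign and stayed past 2-fold in all 15 alternatives run, between -5.17 and -4.18. It left its counting interval with free RNA subtracted (-5.10) and in the shared PT-like cluster, chosen after seeing the data (-5.17). The count of members lower in PT-like cells ranged from 2 to 4, and that of members higher was 1 instead of 0 with at least 1000 UMIs per cell or at 1.5-fold (Ccne1 in both). In EC-like cells the count lower, 1 as reported, was 3 with the first calling step alone, 4 at 1.5-fold, and 2 with at least 1000 UMIs, at most 20% mitochondrial UMIs, high doublet scores left out, each library clustered alone or free RNA subtracted, and also 2 in alternatives chosen after seeing the data, without the control cluster led by Plvap or without cells holding a haemoglobin UMI. With a minimum of 5 UMIs, Ccne2 made 1 member higher there instead of 0. Of 600 further member values, 559 stayed within their counting intervals, 41 left them and 0 called values changed sign. Cdk4 in PT-like cells was below 0 in 1 of 15 alternatives, the shared cluster (-0.83), and Cdk4 in CD-like cells was short of 2-fold with cells of equal weight (-0.51) or thinned to 1000 UMIs (-0.53). With equal weight Ccnd1 and Cdk4 in macrophage-like cells were at -0.88 and -0.45, Ccnd3 in PT-like cells at -0.98 in the shared cluster, and in EC-like cells Ccnd3 at -0.43 and Cdkn1b at -0.03 without the control cluster. Cdkn1b in EC-like cells was at -1.11, past 2-fold, with free RNA subtracted. Cdk6 passed 2-fold in 8 of 13 alternatives in CD-like and 9 of 13 in stroma-like cells. The causes were not tested. Depth limits Ccne1, Ccne2, Cdk2 and all comparisons in the smaller classes.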

Other observations

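Some cells carried the members outside the classes compared above. A cluster led by Lyz2, Fn1 and Thbs1 (69 control and 131 JPI-289 cells) scored highest for macrophage markers but is not part of the macrophage-like class. It stayed unnamed because its leading genes held more markers of another class. In it Ccnd3 levels were 179 and 171 CPM, and Ccnd1 had 7 and 0 UMIs. Its Cdk4 stood at 95.4 (73.2 to 122) in control and 24.9 (15.4 to 38.1) in JPI-289, a log2 ratio of -1.91 (-2.72 to -1.20). A cluster led by Slc14a2, Cryab and Bst1 (105 and 69 cells) had Ccnd1 at 192 (160 to 227) and 101 (74.3 to 134), a log2 ratio of -0.92 (-1.44 to -0.44), Cdk4 at -1.67 (-2.48 to -0.99), and Cdk2 with 21 and 3 UMIs at -2.09 (-4.66 to -0.53). In a cluster led by the nuclear RNAs Neat1, Gm26917 and Malat1 (67 and 301 cells), Cdk2 had 0 UMIs in control, where 130454 UMIs of all genes were counted, and 40 in JPI-289 at 44.5 (31.8 to 60.6) CPM. Lymphocyte-like cells, nearly all from JPI-289 (6 and 98 cells), had 38 Ccnd3 and 42 Cdkn1b UMIs in that library, and podocyte-like cells (13 and 51) had 4 and 15 Ccnd3 UMIs and 1 and 0 Ccnd1 UMIs. Urothelium-like cells (15 and 3) had 67 and 0 Ccnd2 UMIs, at 133 (103 to 169) CPM in control. Their Ccnd1 had 166 and 3 UMIs, at 329 (281 to 383) CPM in control. Platelet-like cells (15 and 24) had 21 and 8 Ccnd3 UMIs, at 1306 (809 to 1997) and 342 (148 to 674) CPM. In control this lay above the 264 (218 to 317) of neutrophil-like cells. The log2 ratio was -1.88 (-3.32 to -0.70), and free RNA was estimated as 39.7% and 79.2% of the UMIs of platelet-like cells.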
